A study of Caenorhabditis elegans with 12 samples.

Results

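The genes of the membrane fluidity pathway of *C*. *elegans* were followed through RNA sequencing of whole day 1 adults. The set was chosen by gene name and holds *paqr-1*, *paqr-2*, *paqr-3*, *iglr-2* and *acdh-11*, of which 4 of 5 have a row among the 12443 genes shared by the 3 tables used. The libraries came from *mdt-15(-)* worms, which carry the *tm2182* mutation in a subunit of the Mediator complex, and from wild-type Bristol N2 worms, each grown at 15 °C or at 25 °C. Each of the 4 groups had 3 independent biological repeats, which gives 12 libraries. Worms were fed OP50 bacteria and collected as whole bodies, so the levels below are averages over all tissues, and in such bulk samples fewer cells of a type and less RNA per cell cannot be told apart.

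The study asked which genes depend on MDT-15 at low temperature. The values per gene that were used here are 1 mean over all libraries, in log2 cpm, where cpm is the count of a gene scaled to a library of fixed size. This mean joins both genotypes and both temperatures. The differences between *mdt-15(-)* and wild type, and between 15 °C and 25 °C, were not analysed here. Since no value per library was used, the sequencing depth behind the mean is unknown. The means carry no standard deviation, so a distance between genes on this scale is a description that was not tested. The *mdt-15* gene itself averaged 0.20 log2 cpm, and this mean over all groups gives no check of the genotype labels.

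Cell membranes stiffen in the cold, and worms answer by raising the share of unsaturated fatty acids in their phospholipids. PAQR-2, a membrane protein with multiple transmembrane segments that is related to the mammalian adiponectin receptors, works with IGLR-2, a transmembrane protein with an immunoglobulin domain and leucine-rich repeats, and together they promote desaturation when membranes become rigid. Worms without PAQR-2 do poorly in the cold. ACDH-11 belongs to the acyl-CoA dehydrogenases and restrains the desaturase gene *fat-7* through the nuclear hormone receptor NHR-49 when worms are kept warm.

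A longer transcript yields more fragments, so the levels of the genes were compared with each other and with all genes per kb of exon, in log2 cpm per kb. The *acdh-11* gene (WBGene00012860; chromosome III, 10566258 to 10571603, plus strand) averaged 4.98 log2 cpm over exons of 1936 bases, which is 4.03 log2 cpm per kb, and 68.4% of the 12408 genes with an exon length lay below it. The *paqr-1* gene (WBGene00016610; chromosome IV, 6552425 to 6555438, minus strand), a paralog of *paqr-2* with overlapping function, averaged 4.17 log2 cpm over 1806 bases, or 3.31 log2 cpm per kb, with 59.5% of genes below it. The *iglr-2* gene (WBGene00022580; chromosome III, 8326512 to 8331311, minus strand) averaged 4.11 log2 cpm over 2894 bases, or 2.57 log2 cpm per kb, with 50.0% of genes below it. The *paqr-2* gene (WBGene00021313; chromosome III, 5375699 to 5379929, minus strand) averaged 2.74 log2 cpm over 2223 bases, or 1.59 log2 cpm per kb, with 36.5% of genes below it. That share was 19.1% when only genes with a mean of at least 1 log2 cpm were counted. The *paqr-3* gene (WBGene00013457; chromosome IV, 14379953 to 14383683, minus strand) has no row in these tables and was not analysed here.

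**Figure D1:**
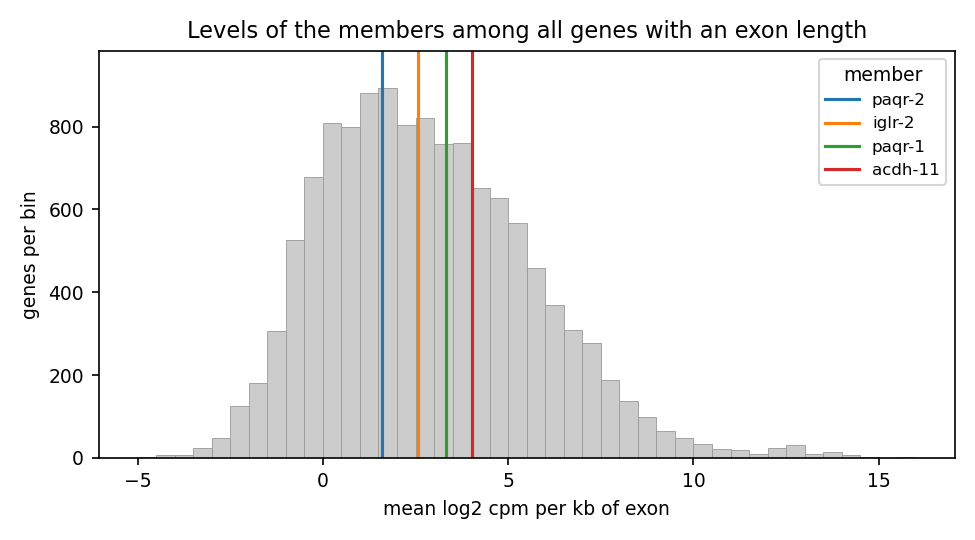
Histogram of the mean log2 cpm per kb of exon of 12408 genes (x axis, bins of 0.5; y axis, genes per bin), where each coloured line marks 1 gene. From left to right the lines are *paqr-2* at 1.59, *iglr-2* at 2.57, *paqr-1* at 3.31 and *acdh-11* at 4.03.

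Per kb of exon, *acdh-11* was thus the highest of the 4 genes and *paqr-2* the lowest. The level of *paqr-1* was 3.30-fold that of its paralog *paqr-2*. The level of *acdh-11* was 5.43-fold that of *paqr-2* and 1.64-fold that of *paqr-1*. The receptor gene *paqr-2* was lower than its partner gene *iglr-2* by a factor of 1.98. This last value and the place of *iglr-2* are uncertain, because exons of *iglr-2* share 195 bases with the more abundant *mrps-18A* on the same strand. At the mean level of *mrps-18A*, 195 bases would give 17.1 cpm, against 17.2 cpm for the whole of *iglr-2*, so reads from this overlap could amount to the entire level of *iglr-2* if they were assigned to it. How much of it they make up was not tested. Across all genes the median was 2.57 log2 cpm per kb and the lower and upper quartiles were 0.73 and 4.67, and all 4 values fell between these quartiles.

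Beside these genes, a list of 11 worm genes linked to PAQR-2 or ACDH-11 was read on the same scale. The list holds the desaturases *fat-5*, *fat-6* and *fat-7*, regulators such as *nhr-49*, *nhr-80*, *sbp-1*, *mdt-15* and *hsf-1*, and the lipid genes *fld-1*, *acs-13* and *pcyt-1*. Of the 11, 10 were found by gene name among the 12443 shared genes, and *fld-1* was not. Rows under other names of the genes were not searched for. Of these 10 genes, 4 were above the median of all genes and 6 were below. The median was 2.23 log2 cpm per kb for these 10 genes, against 2.57 for all genes. The desaturase gene *fat-6* was the highest of the list, at 5.97 log2 cpm per kb, and *fat-7*, the gene that the fluidity pathway and ACDH-11 both act on, averaged 0.81. The means of *acdh-11* and *paqr-2* over all groups both lie between those of *fat-6* and *fat-7*. This order need not hold within any one group, which was not tested. The nuclear hormone receptor gene *nhr-49* averaged 2.15 and the SREBP gene *sbp-1* 0.63 on this scale. The lowest was *mdt-15*, at -1.89 log2 cpm per kb, a mean that includes the libraries of its own mutant. A mean over all groups of a gene such as *fat-7* can join high and low groups, and it does not describe any one of them.

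Within its own family, *acdh-11* lay in the middle. The 13 acyl-CoA dehydrogenase genes (*acdh-1* to *acdh-13*) as a family carry out the first step of β-oxidation on fatty acids or act on related acyl-CoAs. Of these, 12 were found by gene name among the 12443 shared genes, and *acdh-6* was not. Per kb of exon, *acdh-11* was the sixth, with 5 genes above it and 6 below. Those above were *acdh-3* at 6.62, *acdh-10* at 6.07, *acdh-7* at 5.49, *acdh-9* at 5.43 and *acdh-12* at 5.08 log2 cpm per kb. The next below was *acdh-1* at 3.01, and the lowest was *acdh-2* at -0.97. The family median was 3.52, and 8 of the 12 genes were above the median of all genes and 4 were below it. Exons shared with neighbouring genes were looked for only in the 5 genes of the set. The levels of the other family genes and of the linked genes were not checked for them.

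**Figure D2:**
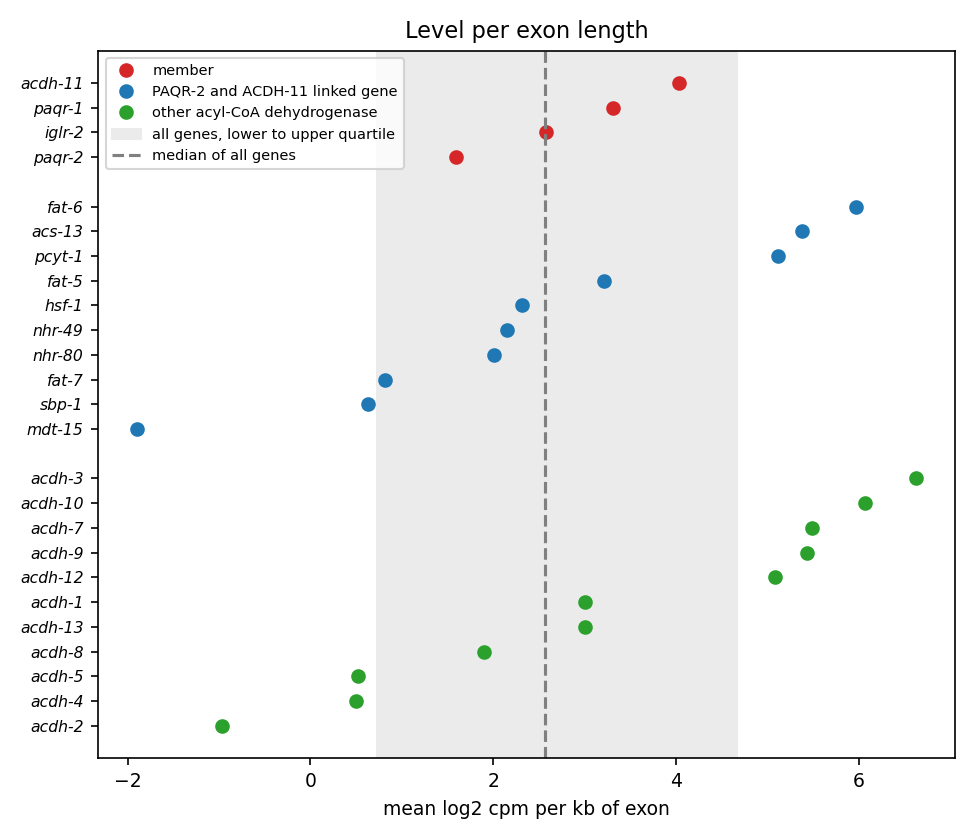
Mean log2 cpm per kb of exon (x axis) for the 4 genes with a value (red), the 10 linked genes with a row (blue) and the other 11 acyl-CoA dehydrogenase genes with a row (green), 1 point per gene, with no error bar because each is 1 mean over all libraries. The grey band runs between the quartiles of all genes, 0.73 and 4.67, and the dashed line is their median of 2.57, and all red points lie in the band.

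The gene models bear on what these levels count. The *paqr-1* gene has 3 annotated transcripts and 7 separate exon blocks, *paqr-2* has 1 transcript and 8 blocks, *paqr-3* has 2 transcripts and 7 blocks, *iglr-2* has 2 transcripts and 16 blocks, and *acdh-11* has 2 transcripts and 8 blocks. All are protein-coding. The exons of *paqr-3* cover 1167 bases. Of the 5 genes, 3 (*paqr-2*, *paqr-3* and *acdh-11*) share no exon base with another annotated gene, while 2 do. In *paqr-1*, 87 bases (4.82% of its exon bases) are shared with *fan-1*, a DNA repair nuclease gene on the opposite strand. At the level of *fan-1*, 1.81 log2 cpm per kb, these bases would give 0.305 cpm, against 18.0 cpm for *paqr-1*. In *iglr-2*, the 195 bases shared with *mrps-18A*, a mitochondrial ribosomal protein gene that averaged 6.46 log2 cpm per kb, are 6.74% of its exon bases, a share that understates their possible weight in its level. Another 146 bases of *iglr-2* (5.04%) lie under *ZC262.13* on the opposite strand, which is not among the 12443 shared genes. No source used here says how reads in these shared bases were assigned or whether strand was used, and their part in the level of *iglr-2* and *paqr-1* was not tested. The levels of *paqr-2* and *acdh-11* have no such overlap.

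**Figure D3:**
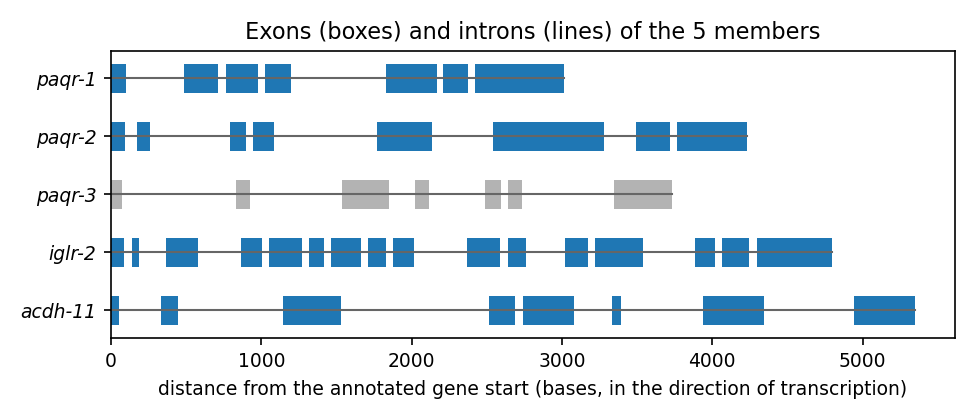
Exons (boxes) and introns (lines) of the 5 genes, drawn from the annotated gene start in the direction of transcription (x axis, bases). The *iglr-2* gene has the most exon blocks, 16, and *paqr-3*, drawn in grey, has no value here.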

How the data were processed

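RNA from synchronized day 1 adults was sequenced in 12 libraries. According to the labels and the methods, the authors used HISAT2 (2.0.5) to align the paired reads to ce11, then StringTie (1.3.3) and Ballgown (2.0.0), and limma (3.24.15) and edgeR (3.10.5), leaving out genes with cpm under 1. The lowest mean among the 12443 genes was -2.27 log2 cpm, which is under 1 cpm, so this filter did not act on the mean used here. The gene annotation and strand setting of the authors are not given in the sources used here. The authors deposited 3 tables of their comparisons, with log2 fold changes, moderated t, p-values, adjusted p-values and log odds, none of which were used. From each deposited table only gene identity and the average log2 expression were taken, which is the authors' mean of voom log2 cpm. It agreed between tables to within 0.0003 for the 12443 shared genes (12443 genes in the table at 15 °C and 12749 in the others). It thus averages the same libraries in each table.

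The comparisons fixed for values per library (limma with Benjamini-Hochberg adjustment) could not be made on these means, and no test was run. Level per kb is the mean minus the log2 of the union of annotated exons in kb, taken from Ensembl annotation (release 115) of WBcel235, which is the same assembly as ce11, and 12408 of 12443 identifiers were found there. The share of these genes below each gene was taken on this scale. For exons shared with a neighbour, the neighbour's cpm per kb was multiplied by the shared length, which assumes even coverage. The rank and length functions were tested on known answers. Python 3.11.15, numpy 2.4.6, pandas 2.3.3 and matplotlib 3.10.9 were used. The genes and lists were chosen with earlier results of these data known. All 5 genes of the set were to be named, and list genes were to be described by counts. A list gene was to have values only where a result of the set turned on it. More list genes than that have values here, which departs from the plan. No sequence table was used here, so no sequence is printed.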

Additional observations from a re-analysis of the deposited data

How the results depend on the processing

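The share of genes below each gene depends on which genes it is ranked among. Per kb of exon, among the 9433 genes with a mean of at least 1 log2 cpm, it was 58.6% for *acdh-11*, 47.1% for *paqr-1*, 35.0% for *iglr-2* and 19.1% for *paqr-2*. Alternatives chosen after seeing the data were the 12712 genes of the larger tables that have a length (69.1%, 60.5%, 51.2% and 38.0% for the same genes in the same order), levels without the correction for length (75.4%, 65.5%, 64.8% and 47.3%), and the 11997 protein-coding genes (68.2%, 59.3%, 49.9% and 36.5%). With the longest transcript as the length, also chosen later, the 4 levels per kb kept their order and moved by at most 0.0016. Both lengths are the same or nearly so for these genes (1806 and 1804 bases for *paqr-1*), so this setting could hardly change the order. No setting left out the bases that *iglr-2* shares with *mrps-18A*, so the order was not tested against that overlap. No paired analysis was possible because the values used are means over all libraries with no replicate of their own. For the same reason, leaving out a replicate, another normalization, adjusted p-values and the unfiltered fit were not run. The depth of the libraries is unknown here, and no interval is given.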
